A study of Homo sapiens with 16 samples.

Results

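The genes described here are the epidermal growth factor receptor (EGFR) family and its ligands: 3 receptor genes (EGFR, ERBB2 and ERBB3) and 7 ligand genes (AREG, EREG, HBEGF, TGFA, BTC, EPGN and NRG1). They were taken by symbol from the count tables, and 10 of 10 symbols matched 1 row each among the 60448 genes. The cells were HMLER, a line made from human mammary epithelial cells by introducing telomerase, viral oncoproteins and oncogenic HRAS. The 16 RNA-seq libraries fell into 8 groups of 2. C1 (unedited, labelled wild type) is described by the submitters as a stable epithelial state. C2-Epi (wild type) is described as a plastic epithelial state and C2-Mes (wild type) as a mesenchymal one. The edited groups derive from C1 by their names. sgControl is labelled wild type, sgEED-Epi and sgEED-Mes are labelled as EED knockouts, and sgKMT2D-Epi and sgKMT2D-Mes as KMT2D knockouts. EED is a core subunit of the PRC2 complex, which places a repressive methyl mark on histone H3. KMT2D places an activating methyl mark on histone H3, mainly at enhancers. Every group was grown in medium with EGF at 10 ng/ml and insulin at 10 ug/ml, so an EGFR ligand was supplied to all cells. The labels do not say whether C1 and C2 are single clones, how many guides were used or whether the Mes cells came from the Epi cells of the same name.

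Receptors of this family are tyrosine kinases that pair up when a ligand binds. EGFR binds EGF, amphiregulin (AREG), transforming growth factor alpha (TGFA), epigen (EPGN), and, together with ERBB4, epiregulin (EREG), betacellulin (BTC) and heparin-binding EGF (HBEGF). Neuregulin 1 (NRG1) binds ERBB3 and ERBB4, ERBB2 has no known ligand of its own, and ERBB3 signals mainly by pairing with another receptor. The ligands are made as membrane-bound precursors that ADAM proteases cut free, and basal mammary epithelial cells are known to use them in autocrine loops. All levels below are transcript levels, which do not measure protein, shedding or receptor activity.

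Library totals ran from 18872124 to 31950649 counts, both extremes being C2-Mes libraries. All 10 genes passed the filter on low counts, and the lowest count among them was 2, for BTC in an sgControl library. Log2 values of the libraries of a group correlated across genes at 0.988 to 0.994, except for C2-Mes at 0.967, where replicate 1 and replicate 2 stood apart. EED was at 24.1 ± 3.52 CPM in sgControl, 28.1 ± 1.99 CPM in sgEED-Epi and 5.36 ± 0.197 CPM in sgEED-Mes (CPM is the count relative to the TMM-scaled library size, given as mean ± SD with n = 2 as throughout). KMT2D was at 80.4 ± 13.4 CPM in sgControl, 126 ± 1.84 CPM in sgKMT2D-Epi and 81.7 ± 6.92 CPM in sgKMT2D-Mes. Of the 4 groups labelled as knockouts, only sgEED-Mes thus had less RNA of the targeted gene than sgControl, so the counts give no check of the other labels (a guide can disrupt a protein and leave the RNA in place). EED was also lower in the other mesenchymal groups than in their epithelial partners, at 11.8 ± 0.877 against 18.9 ± 1.18 CPM in C2 and 22.9 ± 1.34 against 38.2 ± 0.177 CPM in the KMT2D pair, and sgEED-Mes lay under both mesenchymal levels. The state labels had their markers: the summed level of 8 epithelial genes (among them CDH1, EPCAM and GRHL2) was at least 5476 CPM in the Epi and control libraries and 92.2 to 114 CPM in C2-Mes and sgKMT2D-Mes. It was 2082 to 2093 CPM in sgEED-Mes, of which DSP, a desmosome gene, gave 998 ± 128 CPM against 1016 ± 153 CPM in sgEED-Epi, and KRT8 876.7 and 1033 CPM. Of the 8 epithelial genes, 6 were lower in sgEED-Mes than in sgEED-Epi by the test described below. KRT8 went the other way and was higher in sgEED-Mes, and DSP did not pass. The summed level of 8 mesenchymal genes, most of it FN1, was at most 24320 CPM in the Epi and control libraries and at least 45330 CPM in the Mes ones. FN1 alone had a mean of 21680 CPM in sgControl and 36190 CPM in C2-Mes. By the same test, all 8 were higher in each Mes group than in the Epi group of the same name. The 6 leukocyte genes summed to at most 0.753 CPM. The 6 endothelial genes summed to 19.9 to 32.2 CPM in C2-Mes, most of it PECAM1, and to at most 4.6 CPM elsewhere. Of 5 endothelial genes tested, PECAM1, VWF and CLDN5 were higher in C2-Mes than in C2-Epi and none was lower. CDH5, a defining endothelial cadherin, had 0 counts in both C2-Mes libraries. The 6 luminal genes, mostly GATA3, summed to 58.4 to 74.6 CPM in sgEED-Mes and sgKMT2D-Mes and to 2.54 to 23.2 CPM elsewhere. The sum did not stand for the list: of 5 luminal genes tested, GATA3 was higher and 4 (ELF3, ESR1, FOXA1 and KRT19) were lower in sgEED-Mes than in sgEED-Epi. In sgKMT2D-Mes relative to sgKMT2D-Epi, GATA3 and FOXA1 were higher and ELF3 and ESR1 lower. In C2-Mes relative to C2-Epi, GATA3 and FOXA1 were higher and ESR1 lower. The part of the luminal genes in the results below was not tested.

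In each of the 3 Mes against Epi pairs, 6 of the 10 genes were lower and 2 were higher in the mesenchymal cells. EGFR, ERBB3, AREG and TGFA fell in all 3 pairs, and BTC rose in all 3, from a low level. HBEGF and EPGN changed direction between pairs: HBEGF fell in the C2 and KMT2D pairs and rose in the EED pair, and EPGN rose in C2 and fell in the EED pair. The estimates of the other members had the same sign in the 3 pairs but did not pass in each: ERBB2 rose in the KMT2D pair, EREG fell in the EED pair, and NRG1 fell in the C2 and KMT2D pairs. "Rose" and "fell" refer to the mesenchymal group relative to its epithelial partner, at a Benjamini-Hochberg adjusted p under 0.05 over 18285 genes in edgeR's quasi-likelihood test. Against 8 of 10 members in each pair, 39.6% of all genes tested were called in the C2 pair (21% higher and 18.6% lower), 36.5% in the EED pair (19.2% higher and 17.3% lower) and 50.8% in the KMT2D pair (26.8% higher and 24% lower). The change itself differed between the EED and KMT2D pairs for 6 members (20.1% of all genes), between the EED and C2 pairs for 6 (21.1%) and between the KMT2D and C2 pairs for 5 (24.1%), by tests of the interaction. The median log2 change of the members was -1.88, -2.23 and -1.25, while that of all genes tested was 0.01, 0.01 and 0.02. Of all genes tested, 7.03% fell in all 3 pairs and 7.69% rose in all 3. Separate cultures are not stated for the libraries of a group, so the p-values measure the spread between these libraries, which may be technical. In bulk RNA, fewer cells that express a gene and less RNA per cell cannot be told apart.

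**Figure D1:**
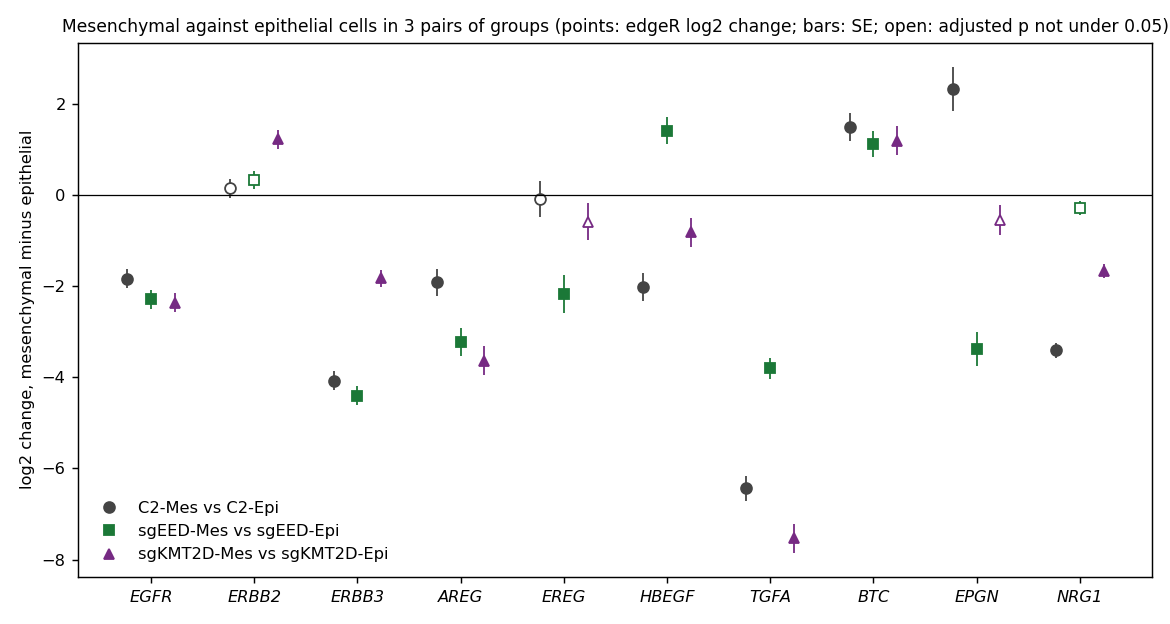
Log2 change (vertical axis) of the 10 genes in mesenchymal against epithelial cells of the C2, EED and KMT2D pairs; points are edgeR estimates, bars are standard errors and open points did not pass the threshold. EGFR, ERBB3, AREG and TGFA lie below 0 in all 3 pairs, whereas HBEGF, EPGN, EREG, ERBB2 and NRG1 spread between the pairs.

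EGFR (chr7:55019021-55211628, plus strand, GRCh38), which binds most of the ligands, was the most abundant receptor transcript. Its level was 642 and 669 in C1, 1001 and 723 in sgControl and 669 and 706 in C2-Epi CPM in the libraries without a targeting guide. It was 649.6 and 690.3 in sgEED-Epi and 800.1 and 785 in sgKMT2D-Epi. Among mesenchymal libraries, levels were 238 and 147 in C2-Mes, 124 and 151 in sgEED-Mes and 156 and 152 in sgKMT2D-Mes. Every epithelial library lay above every mesenchymal one, with the lowest of the former at 642 and the highest of the latter at 238 CPM. EGFR fell by 1.84 ± 0.21 (adjusted p = 7.0e-06) on the log2 scale in C2 cells, by 2.29 ± 0.21 (adjusted p = 1.2e-06) in the EED pair and by 2.36 ± 0.21 (adjusted p = 6.7e-07) in the KMT2D pair, or 3.57-, 4.89- and 5.14-fold. The fall did not pass a test of difference between any pairs (adjusted p = 0.9, 0.31 and 0.21). Without C2-Mes replicate 2, the larger falls in the EED and KMT2D pairs did differ from that in C2, by -0.76 (adjusted p = 0.012) and -0.86 (adjusted p = 0.0044). In order of group means, sgControl, sgKMT2D-Epi, C2-Epi, sgEED-Epi and C1 came first, and only sgKMT2D-Epi and C2-Epi did not overlap among neighbours of that series. The antisense gene EGFR-AS1 overlaps an EGFR exon, and the strand setting of the counting is not given in the sources used here, so reads of both cannot be told apart.

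ERBB2 (chr17:39687914-39730426, plus strand), the receptor without a ligand, did not follow EGFR. Its level was 103 and 98.2 in C1, 79.3 and 82.5 in sgControl and 59.1 and 55.8 in C2-Epi CPM. In the edited epithelial groups it was at 60.2 and 70.5 in sgEED-Epi and 40.02 and 45.1 in sgKMT2D-Epi. In mesenchymal cells it was at 47.4 and 79.4 in C2-Mes, 92.9 and 71.2 in sgEED-Mes and 105 and 93.6 in sgKMT2D-Mes, which overlapped the epithelial range of 40.02 to 103 CPM. The KMT2D pair stood apart, where ERBB2 rose by 1.22 ± 0.21 (adjusted p = 2.4e-04) on the log2 scale, from the lowest group mean of the series to the second highest. In the C2 pair the log2 difference was 0.15 ± 0.20 (adjusted p = 0.62) and in the EED pair 0.33 ± 0.20 (adjusted p = 0.24), neither of which passed. The test of the difference between the KMT2D and C2 pairs gave 1.08 ± 0.29 (adjusted p = 0.015), but adjusted p was 0.056 when the other groups were left out of the fit. That call was also lost without sgKMT2D-Epi replicate 1 (1.01) or sgKMT2D-Mes replicate 1 (1.002). ERBB2 shares exonic stretches with PGAP3 and MIEN1 on the other strand. In the KMT2D pair PGAP3 rose by 1.77 ± 0.19 (adjusted p = 4.7e-06), MIEN1 by 0.83 ± 0.24 (adjusted p = 0.01) and STARD3, another neighbour on chromosome 17, by 0.71 ± 0.21 (adjusted p = 0.011), while MED1 fell by 0.53 ± 0.19 (adjusted p = 0.034). GRB7, the adaptor gene next to them, fell in all 3 pairs (by 3.31, 3.46 and 3.54). Whether reads of the overlapping genes contributed to the ERBB2 value was not tested.

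ERBB3 (chr12:56076799-56103505, plus strand), the partner that binds NRG1, was lowest in every mesenchymal group. Its level was 33.2 and 30.8 in C1, 33.4 and 38.9 in sgControl and 24.4 and 23.6 in C2-Epi CPM. Edited epithelial cells had 20.8 and 24.4 in sgEED-Epi and 12.3 and 13.3 in sgKMT2D-Epi. Mesenchymal levels were 1.34 and 1.47 in C2-Mes, 0.98 and 1.15 in sgEED-Mes and 4.18 and 3.02 in sgKMT2D-Mes. Epithelial and mesenchymal libraries did not overlap, and sgKMT2D was nearest to the gap on both sides. ERBB3 fell by 4.08 ± 0.20 (adjusted p = 1.8e-09) in the C2 pair and by 4.41 ± 0.21 (adjusted p = 1.9e-09) in the EED pair, folds of 16.9 and 21.3. In the KMT2D pair it fell by 1.83 ± 0.18 (adjusted p = 1.9e-06), or 3.55-fold. The smaller fall of the KMT2D pair differed from the C2 pair by 2.25 ± 0.27 (adjusted p = 4.3e-05) and from the EED pair by -2.58 ± 0.27 (adjusted p = 2.1e-05), the latter as EED minus KMT2D. AC034102.2 overlaps an ERBB3 exon on the same strand. ERBB4, the fourth receptor of the family, was not a listed member: it had at most 6 counts in a library and 0 counts in every C1, sgControl, C2-Epi and sgEED-Epi library.

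Levels of different genes were set side by side per kilobase of exon. The length used is that of all annotated exons of a gene, and which transcripts these cells express was not determined. EGFR made up 79.7% to 91.9% of the summed CPM per kb of the 3 receptors in the epithelial and control groups. It made up 70.0% in C2-Mes, 57.6% in sgEED-Mes and 55.1% in sgKMT2D-Mes. ERBB2 took up the rest almost alone, with 29.3%, 41.8% and 43.1%. In C2-Mes the ERBB2 share was 19.3% in replicate 1 and 39.3% in replicate 2, against 36.2% and 47.4% in the sgEED-Mes libraries and 42.1% and 44.1% in the sgKMT2D-Mes ones. The receptor sum was 62.3 to 80.7 CPM per kb in the epithelial groups and 19.0 to 22.3 CPM per kb in the mesenchymal ones.

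Of the 7 ligand genes, EPGN, EREG, AREG and BTC lie in that order in a cluster on chromosome 4, and they did not move together. AREG fell in every Mes against Epi pair, whereas its neighbour EREG passed only in the EED pair, and a difference between these 2 genes was not tested. Their promoter stretches and that of TGFA, the ligand with the largest fall, are shown from 200 bases before the RefSeq start to 30 bases from it (RefSeq, GRCh38.p14). AREG is chr4:74444936-74445165 on the plus strand, EREG is chr4:74364945-74365174 on the plus strand and TGFA is chr2:70553417-70553646 on the minus strand, at the second of its 2 listed starts. Of the 2 TGFA windows, the one shown was picked because it held the E-box described next. Capitals mark the E-box CAGGTG or its reverse complement CACCTG, letters that the repressors of the ZEB and SNAI families are known to bind.
AREG: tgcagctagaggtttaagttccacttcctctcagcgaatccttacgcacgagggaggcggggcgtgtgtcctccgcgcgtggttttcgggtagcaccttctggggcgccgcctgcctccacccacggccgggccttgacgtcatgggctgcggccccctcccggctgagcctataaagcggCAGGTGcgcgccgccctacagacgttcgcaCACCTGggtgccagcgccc
EREG: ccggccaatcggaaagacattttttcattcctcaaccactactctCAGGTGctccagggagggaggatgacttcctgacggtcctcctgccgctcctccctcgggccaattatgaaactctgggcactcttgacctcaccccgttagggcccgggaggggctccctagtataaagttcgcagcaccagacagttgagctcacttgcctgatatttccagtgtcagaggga
TGFA: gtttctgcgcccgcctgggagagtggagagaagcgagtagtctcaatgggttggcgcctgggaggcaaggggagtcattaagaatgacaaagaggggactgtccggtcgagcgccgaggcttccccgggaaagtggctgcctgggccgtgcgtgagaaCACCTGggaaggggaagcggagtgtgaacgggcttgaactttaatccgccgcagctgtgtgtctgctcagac
AREG held the E-box at -19 and at +11 from its start, TGFA at -42 of its second start and EREG at -155. The window at the first TGFA start held none. Searched on both strands over windows of 300 bases, CAGGTG was found in 20.6% of 35116 RefSeq promoters. Among the other members it was found for HBEGF at -248 and for BTC at -193. The AP-1 motif TGANTCA (7.71% of promoters) was found for ERBB2 at -222 and in the second EGFR window at -232 and -136, and the grainyhead motif AACCNGTT (1.73%) in none of the 10 windows of the 8 members with an entry. ERBB3 and NRG1 had no entry. These matches describe letters and show no binding.

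AREG (chr4:74445134-74455009, plus strand), a main autocrine EGFR ligand of mammary epithelium, was the most abundant ligand transcript per kilobase in every group. Before division by length, mean EREG was higher in sgKMT2D-Mes (94.1 against 32.3 CPM) and close to AREG in C2-Mes (231 against 228 CPM). The AREG level was 628 and 589.5 in C1, 1266 and 1047 in sgControl and 838 and 888 in C2-Epi CPM. With a targeting guide, epithelial levels were 626 and 714 in sgEED-Epi and 417 and 387 in sgKMT2D-Epi. The mesenchymal libraries had 325 and 131 in C2-Mes, 64.7 and 78.8 in sgEED-Mes and 31.3 and 33.4 in sgKMT2D-Mes. All mesenchymal libraries lay under the lowest epithelial value of 387 CPM, the nearest being C2-Mes replicate 1. AREG fell by 1.92 ± 0.30 (adjusted p = 1.5e-04) on the log2 scale in C2 cells, by 3.22 ± 0.31 (adjusted p = 2.7e-06) in the EED pair and by 3.63 ± 0.32 (adjusted p = 7.7e-07) in the KMT2D pair. The C2 value was -2.83 without C2-Mes replicate 1 and -1.45 without replicate 2, and its adjusted p was 0.05 when only C2 libraries were fitted. The fall in the KMT2D pair exceeded that in C2 by 1.71 ± 0.41 (adjusted p = 0.0078), a difference of 0.88 without C2-Mes replicate 1 (adjusted p = 0.0024). It lost its call when only the compared libraries were fitted (adjusted p = 0.055).

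TGFA (chr2:70447280-70554193, minus strand), another high-affinity EGFR ligand, had the widest range, 298-fold between group means. Its level was 82.4 and 75.9 in C1, 104 and 86.8 in sgControl and 83.5 and 88.9 in C2-Epi CPM. The edited epithelial libraries had 61.6 and 72.5 in sgEED-Epi and 59.2 and 61.5 in sgKMT2D-Epi. Among mesenchymal libraries, levels were 1.46 and 0.671 in C2-Mes, 4.1 and 5.55 in sgEED-Mes and 0.335 and 0.306 in sgKMT2D-Mes. Thus 59.2 CPM was the lowest epithelial and 5.55 CPM the highest mesenchymal value, and the sgKMT2D-Mes libraries held 8 and 7 reads of the gene. TGFA fell in every pair, with log2 changes of -6.44 ± 0.28 (adjusted p = 5.4e-10) in C2, -3.80 ± 0.23 (adjusted p = 1.9e-08) in the EED pair and -7.53 ± 0.31 (adjusted p = 4.6e-10) in the KMT2D pair, folds of 86.6, 13.9 and 185. The C2 value was -7.10 without C2-Mes replicate 1 and -5.92 without replicate 2. The fall in the EED pair was smaller than in C2 by 2.63 ± 0.34 (adjusted p = 7.5e-05) and than in the KMT2D pair by 3.73 ± 0.40 (adjusted p = 2.2e-05). The 3 mesenchymal groups did not overlap: sgEED-Mes was highest, C2-Mes next and sgKMT2D-Mes lowest.

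EREG (chr4:74365143-74388751, plus strand), which lies between EPGN and AREG, had negative estimates in the 3 pairs, of which 1 passed. Its level was 111 and 112 in C1, 114 and 66.1 in sgControl and 220.0 and 272 in C2-Epi CPM. In the edited epithelial groups it was at 234 and 199 in sgEED-Epi and 158 and 124 in sgKMT2D-Epi. In mesenchymal cells it was at 347 and 115 in C2-Mes, 35.3 and 60.8 in sgEED-Mes and 95.6 and 92.7 in sgKMT2D-Mes. The C2-Mes libraries lay far apart, with replicate 1 the highest of all 16 libraries. EREG fell in the EED pair, by 2.17 ± 0.42 (adjusted p = 0.0011) on the log2 scale, and this held without each of the 4 libraries in turn. The differences of -0.09 ± 0.40 (adjusted p = 0.89) in C2 and -0.58 ± 0.40 (adjusted p = 0.25) in the KMT2D pair did not pass. Without C2-Mes replicate 1 EREG did fall in C2, by 1.21 (adjusted p = 0.018), and with replicate 1 alone the difference was 0.45. In the KMT2D pair it passed when only those 4 libraries were fitted (-0.60, adjusted p = 6.8e-06).

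HBEGF (chr5:140332843-140346631, minus strand), a heparin-binding ligand induced by stress and by ERK signalling, differed in direction between pairs. Its level was 13.3 and 12.6 in C1, 86.2 and 43.1 in sgControl and 29.7 and 32.4 in C2-Epi CPM. Edited epithelial cells had 18.2 and 19.6 in sgEED-Epi and 8.72 and 7.77 in sgKMT2D-Epi. Mesenchymal levels were 10.3 and 5.24 in C2-Mes, 49.3 and 51.1 in sgEED-Mes and 4.98 and 4.33 in sgKMT2D-Mes. The sgEED-Mes libraries lay above both sgEED-Epi libraries and above all other mesenchymal libraries, and the sgControl libraries lay on either side of them. HBEGF rose by 1.41 ± 0.30 (adjusted p = 0.002) in the EED pair. It fell by 2.03 ± 0.31 (adjusted p = 1.5e-04) in the C2 pair (-2.68 without C2-Mes replicate 1), and the EED pair exceeded C2 by 3.44 ± 0.43 (adjusted p = 6.0e-05) and the KMT2D pair by 2.23 ± 0.44 (adjusted p = 0.0027). A fall in the KMT2D pair by 0.82 ± 0.32 (adjusted p = 0.046) lost its call when any 1 of its 4 libraries was left out (adjusted p 0.068 to 0.16).

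EPGN (chr4:74308473-74315307, plus strand), a low-affinity EGFR ligand, varied 38.1-fold between group means, and both ends of that range were epithelial groups. Its level was 10.4 and 9.12 in C1, 1.93 and 0.942 in sgControl and 0.289 and 0.653 in C2-Epi CPM. With a targeting guide, epithelial levels were 24.2 and 11.8 in sgEED-Epi and 15.5 and 15.3 in sgKMT2D-Epi. The mesenchymal libraries had 2.81 and 2.01 in C2-Mes, 1.92 and 1.5 in sgEED-Mes and 11 and 9.89 in sgKMT2D-Mes. C2-Epi was lowest, so EPGN rose by 2.33 ± 0.48 (adjusted p = 0.0015) in the C2 pair, from 8 and 17 reads, and by 2.94 without C2-Epi replicate 2. It fell by 3.38 ± 0.38 (adjusted p = 9.6e-06) in the EED pair, where sgEED-Epi replicate 1 was the highest library of the series, and its change was -2.79 without that library. In the KMT2D pair the log2 difference was -0.56 ± 0.33 (adjusted p = 0.17). The tests of difference gave -5.71 ± 0.60 (adjusted p = 1.3e-05) for EED minus C2, -2.82 ± 0.50 (adjusted p = 0.0013) for EED minus KMT2D and -2.89 ± 0.58 (adjusted p = 0.0026) for KMT2D minus C2.

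BTC (chr4:74744759-74794686, minus strand), a ligand of EGFR and ERBB4, was the only member that rose in all 3 pairs, and it stayed under 7 CPM in each library (142 reads at most). Its level was 0.933 and 0.818 in C1, 0.252 and 0.0857 in sgControl and 1.26 and 1.38 in C2-Epi CPM. The edited epithelial libraries had 2.51 and 2.46 in sgEED-Epi and 0.921 and 1.39 in sgKMT2D-Epi. Among mesenchymal libraries, levels were 3.51 and 3.96 in C2-Mes, 4.57 and 6.25 in sgEED-Mes and 2.05 and 3.24 in sgKMT2D-Mes. Each mesenchymal group lay above C1, sgControl, C2-Epi and sgKMT2D-Epi, while sgEED-Epi overlapped sgKMT2D-Mes. The rise was 1.5 ± 0.31 (adjusted p = 0.0014) in C2, 1.12 ± 0.29 (adjusted p = 0.0069) in the EED pair and 1.19 ± 0.32 (adjusted p = 0.0064) in the KMT2D pair. The EED call was lost without sgEED-Epi replicate 2 (adjusted p = 0.059) or sgEED-Mes replicate 2 (0.076), and the KMT2D call without sgKMT2D-Epi replicate 1 (0.1) or sgKMT2D-Mes replicate 2 (0.12).

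NRG1 on chromosome 8, the ligand of ERBB3 and ERBB4, was set apart by sgEED-Mes, where it stayed near its epithelial level. Its level was 23.8 and 23.9 in C1, 15.3 and 11.7 in sgControl and 64 and 62.4 in C2-Epi CPM. In the edited epithelial groups it was at 63.8 and 72 in sgEED-Epi and 73.8 and 67.5 in sgKMT2D-Epi. In mesenchymal cells it was at 6.19 and 5.72 in C2-Mes, 51.7 and 59.6 in sgEED-Mes and 22.8 and 21.5 in sgKMT2D-Mes. It fell by 3.41 ± 0.17 (adjusted p = 1.5e-09) in the C2 pair, or 10.6-fold, and by 1.67 ± 0.15 (adjusted p = 7.5e-07) in the KMT2D pair, whereas the difference of -0.29 ± 0.15 (adjusted p = 0.15) in the EED pair did not pass. The EED pair differed from C2 by 3.12 ± 0.22 (adjusted p = 2.3e-07) and from the KMT2D pair by 1.39 ± 0.21 (adjusted p = 3.8e-04), and the KMT2D pair from C2 by 1.74 ± 0.22 (adjusted p = 6.0e-05). C1 and sgControl had less NRG1 than the other epithelial groups, and their libraries did not overlap with these.

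**Figure D2:**
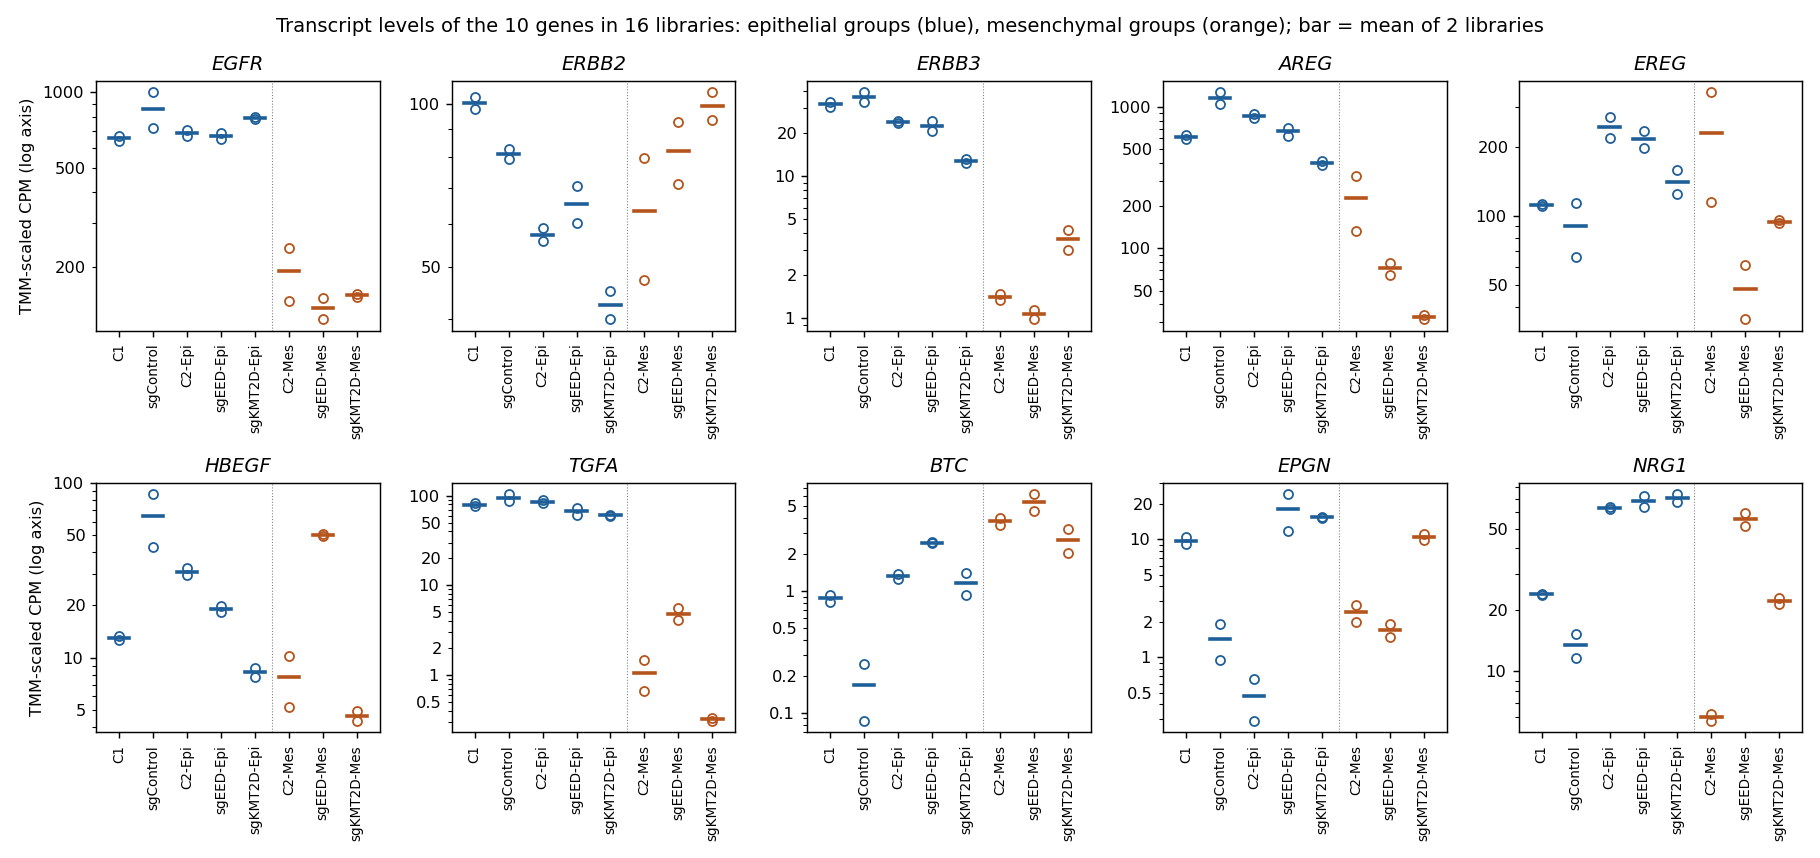
TMM-scaled CPM (log axis) of each gene in the 16 libraries, grouped on the horizontal axis, with blue for epithelial and control groups, orange for mesenchymal groups, circles for libraries and bars for means of 2. EGFR, ERBB3, AREG and TGFA separate the colours, the C2-Mes libraries lie far apart for AREG and EREG (347 and 115 CPM for EREG), and HBEGF, EPGN and NRG1 vary as much within a colour as between them.

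The makeup of the ligand pool per kilobase of exon changed with the state. AREG made up 81.7% to 92.4% of the summed CPM per kb of the 7 ligands in the epithelial and control groups. It made up 75.3% in C2-Mes, 56.3% in sgEED-Mes and 42.3% in sgKMT2D-Mes. The genes behind it differed: EREG followed with 21.05% ± 2.59 in C2-Mes and 35.5% ± 0.89 in sgKMT2D-Mes, and HBEGF with 21.7% ± 2.42 in sgEED-Mes (SD, n = 2). EPGN reached 12.4% in sgKMT2D-Mes and NRG1 6.37% in sgEED-Mes. The ligand sum itself was 298.5 to 760.3 CPM per kb in the epithelial and control groups, 185 ± 113 in C2-Mes, 77.3 ± 10.6 in sgEED-Mes and 46.3 ± 0.16 in sgKMT2D-Mes. These shares depend on the exon lengths used and were not tested.

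**Figure D3:**
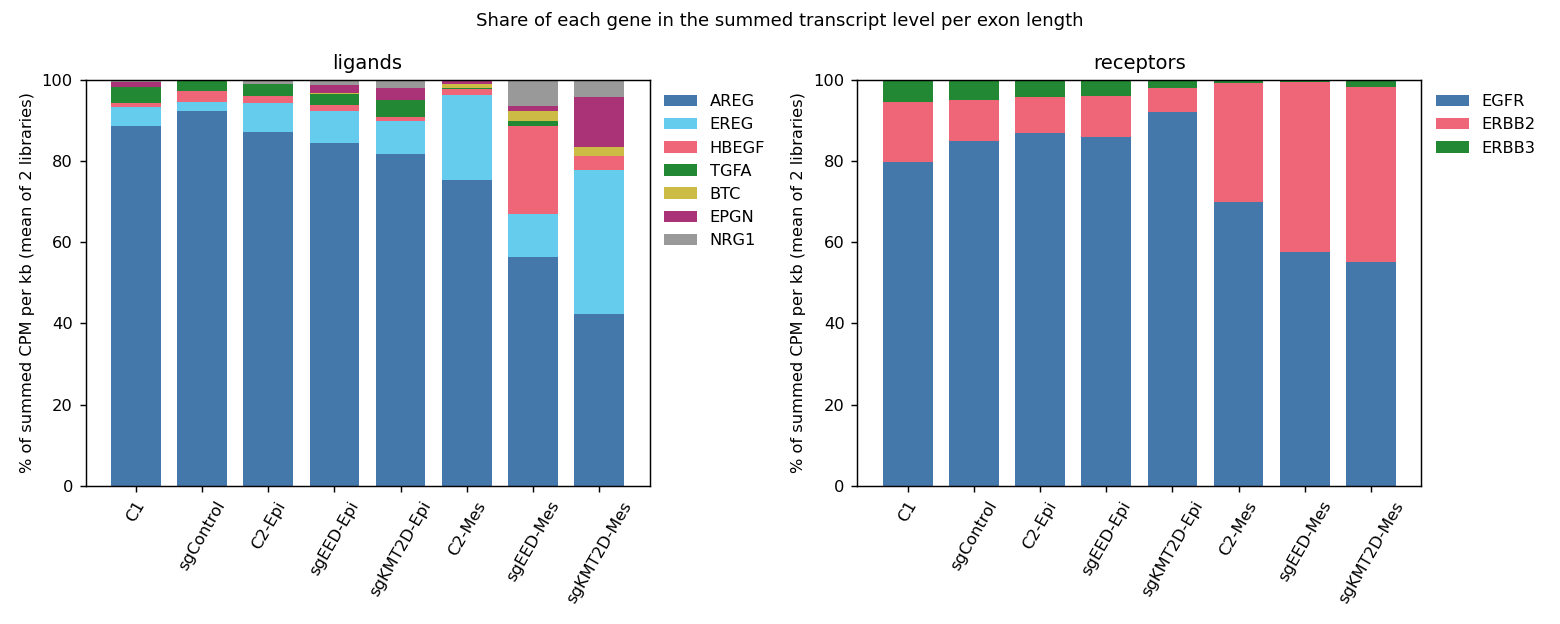
Share (%) of each gene in the summed CPM per kb of exon, for the 7 ligands (left) and the 3 receptors (right), as the mean of 2 libraries in each group. AREG fills 81.7% to 92.4% of the ligand bars in epithelial and control groups and 42.3% in sgKMT2D-Mes, and the ERBB2 part of the receptor bars is widest in sgEED-Mes (41.8%) and sgKMT2D-Mes (43.1%).

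The 3 mesenchymal groups differed from each other in ligands. ERBB3 was higher in sgKMT2D-Mes than in sgEED-Mes and C2-Mes, and ERBB2 was called only between sgKMT2D-Mes and C2-Mes. Between sgEED-Mes and sgKMT2D-Mes 7 of 10 members were called, against 31.1% of all genes: TGFA was higher in sgEED-Mes by 3.88 ± 0.33 (adjusted p = 1.1e-06), HBEGF by 3.43 ± 0.33 (adjusted p = 4.1e-06), NRG1 by 1.33, AREG by 1.15 and BTC by 1.03. EPGN fell by 2.60 ± 0.38 (adjusted p = 1.5e-04) and ERBB3 by 1.76 ± 0.22 (adjusted p = 3.3e-05) in sgEED-Mes relative to sgKMT2D-Mes. The AREG call was lost without 3 of the 4 libraries (adjusted p 0.063 to 0.081), and the BTC call without sgEED-Mes replicate 2 (0.12) or sgKMT2D-Mes replicate 1 (0.16). EGFR (-0.17, adjusted p = 0.56), ERBB2 and EREG did not pass. Against C2-Mes, whose libraries both comparisons share, 5 members were called in sgEED-Mes (41.9% of all genes) and 7 in sgKMT2D-Mes (33.4%). AREG was lower than in C2-Mes by 1.67 in sgEED-Mes and by 2.82 in sgKMT2D-Mes, or by 0.86 and 2.01 without C2-Mes replicate 1. NRG1 was higher by 3.23 ± 0.17 (adjusted p = 3.3e-09) and 1.90 ± 0.16 (adjusted p = 7.7e-07). The remaining called values were HBEGF 2.72, TGFA 2.27 and EREG -2.26 in sgEED-Mes, where EREG was at -1.25 without C2-Mes replicate 1 and -2.91 without replicate 2, and TGFA at 1.65 without replicate 2. In sgKMT2D-Mes they were EPGN 2.14, ERBB3 1.34, ERBB2 0.65, TGFA -1.61 and EREG -1.29. Without C2-Mes replicate 1 the last 3 calls were lost, at 0.33 for ERBB2 (adjusted p = 0.14), -1.04 for TGFA (0.08) and -0.28 for EREG (0.59). Without C2-Mes replicate 2, TGFA was at -2.23 and EREG at -1.94. When sgKMT2D-Mes and C2-Mes were fitted alone, the calls of ERBB2 (0.23), ERBB3 (0.064), TGFA (0.13) and EREG (0.19) were lost. Leaving out sgKMT2D-Mes replicate 1 ended the calls of ERBB2 and EREG, and leaving out its replicate 2 those of ERBB2, EREG and TGFA.

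Among epithelial cells, NRG1 was higher in C2-Epi, sgEED-Epi and sgKMT2D-Epi than in C1. In C2-Epi it rose by 1.41 ± 0.15 (adjusted p = 1.6e-05), in sgEED-Epi by 1.51 ± 0.15 (adjusted p = 1.2e-05) and in sgKMT2D-Epi by 1.57 ± 0.15 (adjusted p = 4.7e-06), comparisons that share the C1 libraries. Between C2-Epi and C1 5 members were called, against 30.7% of all genes. EPGN fell by 4.37 ± 0.45 (adjusted p = 1.2e-05) in C2-Epi, or 20.7-fold, and HBEGF rose by 1.26 ± 0.30 (adjusted p = 0.0067). The HBEGF call was lost without C1 replicate 2, at a value of 1.31. The fall of ERBB2 by 0.81 ± 0.21 (adjusted p = 0.0097) and the rise of EREG by 1.14 ± 0.40 (adjusted p = 0.048) lost their calls when any 1 of the 4 libraries was left out. EGFR (0.07), TGFA (0.12), AREG (0.50), ERBB3 (-0.42) and BTC (0.59) did not pass. AREG (0.54, adjusted p = 1.5e-06) and ERBB3 (-0.38, adjusted p = 0.0015) did pass when only the 4 libraries were fitted. That fit called 9967 of all genes instead of 5620. AREG also passed without the filter on low counts (0.59, adjusted p = 0.0034).

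For most of the ligands, the difference between edited and control epithelial cells depended on which control was used. Against sgControl, 8 of 10 were called in sgEED-Epi (48.8% of all genes) and 8 in sgKMT2D-Epi (56% of all genes), with the sgControl libraries shared. HBEGF fell by 1.77 ± 0.30 (adjusted p = 3.2e-04) and 2.97 ± 0.32 (adjusted p = 5.5e-06), and AREG by 0.79 ± 0.29 (adjusted p = 0.036) and 1.53 ± 0.29 (adjusted p = 6.4e-04). Without sgControl replicate 1 the HBEGF values were -1.18 and -2.37. NRG1 rose by 2.33 ± 0.16 (adjusted p = 1.6e-07) and 2.39 ± 0.16 (adjusted p = 9.7e-08). EPGN rose by 3.64 and 3.42, and BTC by 3.83 and 2.73, the latter against 6 and 2 reads in sgControl. ERBB3 fell by 0.68 and 1.5 and TGFA by 0.51 and 0.66. The AREG and TGFA calls in sgEED-Epi were lost when any 1 of the 4 libraries was left out. The ERBB3 call in sgEED-Epi was lost without sgControl replicate 2 (-0.515) or sgEED-Epi replicate 1 (-0.56). The TGFA call in sgKMT2D-Epi was lost without sgControl replicate 1 (-0.51), sgKMT2D-Epi replicate 1 (-0.57) or sgKMT2D-Epi replicate 2 (-0.61). That TGFA call was also lost after a correction for GC content and length (-0.37, adjusted p = 0.084). EREG rose in sgEED-Epi by 1.26 ± 0.41 (adjusted p = 0.02), a value of 0.28 (adjusted p = 0.4) after a correction for GC content and length. ERBB2 fell in sgKMT2D-Epi by 0.93 ± 0.21 (adjusted p = 0.0018), a value of -0.30 (adjusted p = 0.12) after that correction. EGFR did not pass in either (-0.36 and -0.12).

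Against C1, the unedited parent by name, 4 members were called in sgEED-Epi (25.2% of all genes) and 3 in sgKMT2D-Epi (38.8%). NRG1 was higher in both, as given above. ERBB3 fell by 0.50 ± 0.16 (adjusted p = 0.037) and 1.32 ± 0.17 (adjusted p = 5.0e-05), and ERBB2 by 0.62 ± 0.20 (adjusted p = 0.04) and 1.24 ± 0.21 (adjusted p = 4.5e-04). BTC rose in sgEED-Epi by 1.5 ± 0.33 (adjusted p = 0.0049). AREG (0.14 and -0.60), HBEGF (0.55 and -0.65), TGFA, EPGN and EREG did not pass in either. sgControl itself differed from C1 in 5 of 10 members (27.1% of all genes): HBEGF rose by 2.32 ± 0.31 (adjusted p = 1.8e-04), or 5-fold, and AREG by 0.93 ± 0.29 (adjusted p = 0.03), while EPGN fell by 2.76 ± 0.39 (adjusted p = 2.7e-04), BTC by 2.33 ± 0.49 (adjusted p = 0.0038) and NRG1 by 0.82 ± 0.15 (adjusted p = 0.0017). The AREG call was lost when any 1 of the 4 libraries was left out (adjusted p 0.091 to 0.17). Without sgControl replicate 1 the HBEGF difference was 1.73, that of BTC -3.29 and that of EPGN -3.38. For HBEGF the means were 12.9 ± 0.51 CPM in C1 and 64.7 ± 30.5 CPM in sgControl. The mean of sgEED-Epi (18.9 ± 1.03 CPM) lay between them and that of sgKMT2D-Epi (8.24 CPM) under both, and neither passed against C1. Directly between sgEED-Epi and sgKMT2D-Epi, 3 members were called (17.5% of all genes), with ERBB3 higher in sgEED-Epi by 0.82 ± 0.17 (adjusted p = 0.0034), HBEGF by 1.20 ± 0.30 (adjusted p = 0.014) and BTC by 1.11 ± 0.32 (adjusted p = 0.026). None of these 3 calls held without sgKMT2D-Epi replicate 1.

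**Figure D4:**
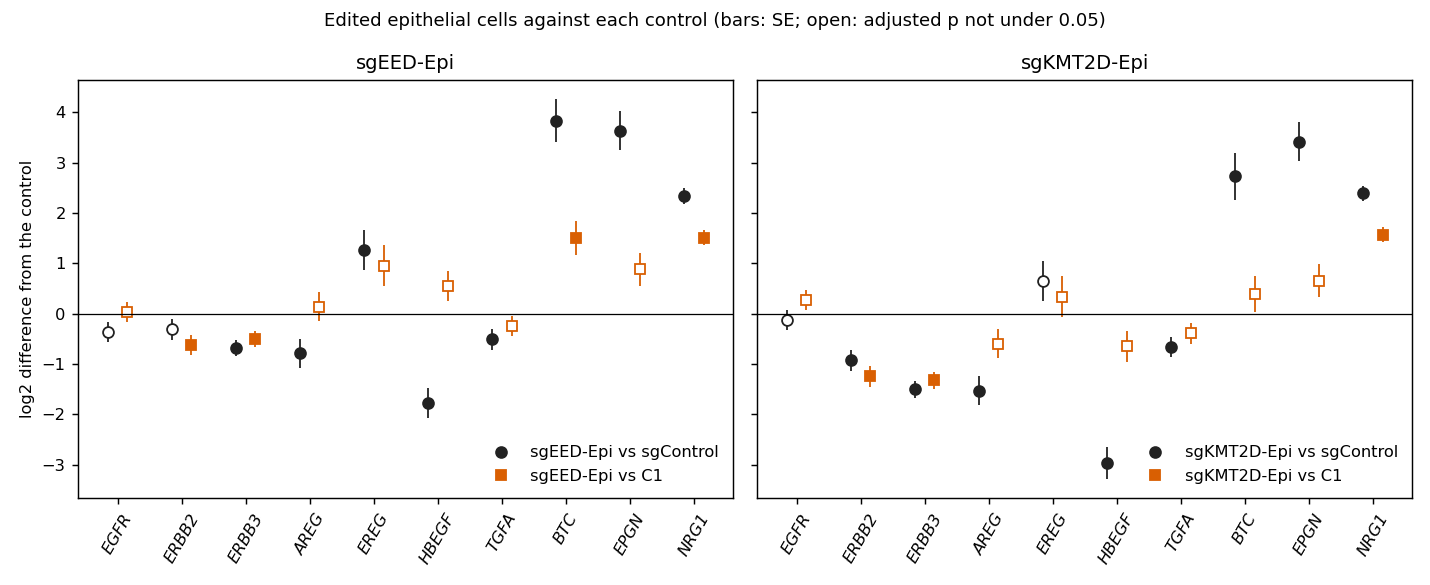
Log2 difference (vertical axis) of the 10 genes in sgEED-Epi (left) and sgKMT2D-Epi (right) from sgControl (black circles) and from C1 (orange squares); bars are standard errors and open symbols did not pass. NRG1 and ERBB3 are filled and on the same side with both controls in both panels, while HBEGF in sgEED-Epi lies at -1.77 from sgControl and 0.55 from C1.

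The remaining ligands of the family were nearly silent. EGF, NRG2 and NRG4 were measured at means of 1.03, 1.03 and 0.593 CPM over 16 libraries. EGF was highest in sgEED-Mes, at 3.31 ± 0.171 CPM, where it rose by 1.47 ± 0.36 (adjusted p = 0.0054) relative to sgEED-Epi. NRG3 had 1 count in 1 library. The 4 non-member genes between and next to the ligand genes on chromosome 4 did not pass the filter on low counts.

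Genes for ligand shedding were mostly present in both states. Of 10 listed genes, 6 rose and 1 fell in C2, 4 rose and 3 fell in the EED pair, and 3 rose and 2 fell in the KMT2D pair, where 39.6%, 36.5% and 50.8% of all genes were called. The median log2 changes were 0.79, 0.44 and 0.36. ADAM12 rose and ADAM8 fell in all 3. Among the 3 most abundant, ADAM9 changed by 0.72 ± 0.20 (adjusted p = 0.012), 0.49 ± 0.20 (adjusted p = 0.075) and 0.25 ± 0.20 (adjusted p = 0.32), and ADAM10, which sheds BTC and EGF precursors, by 0.16, 0.88 and 0.63, of which only the second passed. TIMP3, an inhibitor of ADAM17, rose by 2.25 ± 0.23 (adjusted p = 2.6e-06) and 2.72 ± 0.23 (adjusted p = 6.2e-07) in the C2 and EED pairs and was at 0.00 in the KMT2D pair. ADAM17, the main sheddase of AREG, TGFA and HBEGF, was at 1.54 (adjusted p = 1.7e-06), 0.09 (adjusted p = 0.69) and 0.49 (adjusted p = 0.013). ADAM17, ADAM12 and ADAM8 were singled out after their values were seen.

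Downstream of the receptors, 15 adaptor and effector genes were listed, of which 7 rose and 3 fell in C2, 6 rose and 2 fell in the EED pair, and 8 rose and 2 fell in the KMT2D pair (39.6%, 36.5% and 50.8% of all genes called). SHC1, an adaptor that links receptors to RAS, rose by 0.90 ± 0.20 (adjusted p = 0.0024) in C2 and 0.96 ± 0.20 (adjusted p = 0.0011) in the KMT2D pair, with 0.25 ± 0.20 (adjusted p = 0.36) in the EED pair. PTPN11, the phosphatase SHP2, fell in all 3 (by 0.59, 0.66 and 1.11). STAT3 rose in the KMT2D pair by 0.57 ± 0.12 (adjusted p = 0.0013) and did not pass in the others. Of 15 genes that restrain or internalize the receptors, 6 rose in each pair and 2, 3 and 5 fell, beside the same shares of all genes. ERRFI1 (MIG6), an inhibitor of the EGFR kinase that EGFR signalling itself induces, fell by 1.84 ± 0.19 (adjusted p = 3.0e-06), 1.08 ± 0.19 (adjusted p = 3.9e-04) and 0.77 ± 0.18 (adjusted p = 0.0033). SH3KBP1, an endocytic adaptor, rose by 0.80 and 1.00 in the C2 and EED pairs (0.35, adjusted p = 0.15, in the KMT2D pair). The phosphatase gene PTPN1 fell by 0.99 in the KMT2D pair and did not pass in the others.

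Transcripts known to respond to ERK signalling split in the mesenchymal pairs: of 20 listed genes, 11 rose and 6 fell in C2, 10 rose and 7 fell in the EED pair, and 8 rose and 7 fell in the KMT2D pair (medians 0.71, 0.17 and -0.04, with 39.6%, 36.5% and 50.8% of all genes called). EGR1 fell by 0.59 in C2 and rose by 0.81 and 1.47 in the edited pairs. FOS fell by 0.83 in C2 and 0.83 in the KMT2D pair, and CCND1 rose by 0.62 in C2 and fell by 0.43 and 0.40 in the others. Beside the HBEGF and AREG levels of sgControl, 12 of the 20 genes rose in sgControl relative to C1 and the other 8 did not pass (27.1% of all genes called). In C2-Epi relative to C1, 11 rose and 1 fell (30.7% of all genes). In sgControl EGR1 was higher by 1.25 ± 0.19 (adjusted p = 4.5e-04) and FOS by 0.97 ± 0.22 (adjusted p = 0.0059). Against sgControl, 9 of the 20 fell and 3 rose in sgEED-Epi (48.8% of all genes called), and 9 fell and 1 rose in sgKMT2D-Epi (56% of all genes). The part of these genes in the sgControl values of the ligands was not tested.

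By Pearson r over the 8 group means of log2 CPM, among 11689 coding genes with at least 5 CPM in a group, the genes most like 9 of the members were as follows; the points share the 16 libraries and their state split, and the values are a description. EGFR was most like TNS4, PNLIPRP3 and SH2D3A (r 0.993 to 0.988). AREG was most like FUT1, PSTPIP2 and TPD52L1 (0.99 to 0.986), TGFA like KARS1, TFAP2C and SSRP1 (0.995 to 0.993), and BTC like NRCAM, MLLT3 and PIGK (0.977 to 0.975). ERBB2 was most like PLEKHO2, ZNF580 and HDGFL2 (0.979 to 0.97) and NRG1 like SNRPG, DEPDC7 and SPATA13 (0.981 to 0.965). HBEGF was most like IL11, at 0.971, followed by CLTCL1 and ALOX5 at 0.923. EREG was most like MVD (0.955), CYP51A1 (0.93), both genes of cholesterol synthesis, and COG5 (0.917). EPGN had the least similar partners, PIGG, ASB9 and QDPR at 0.918 to 0.905. Among the members, EGFR was most like ERBB3 (0.938), TGFA (0.926) and AREG (0.913), whereas AREG and its neighbour EREG had 0.5 and AREG and EPGN -0.19.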

How the data were processed

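The labels give total RNA from HMLER cells as the source of the Illumina libraries. The submitters' processing notes name the aligner STAR 2.7.1a, the read counter featureCounts and the build GRCh38. The deposited values are raw counts of 60448 Ensembl genes in each of 16 libraries. Which annotation was counted, whether strand was used and how multiply mapped reads were treated is not given in the sources used here. Symbols, positions and union exon lengths came from GENCODE 29, which held 94.1% of the genes.

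The members and gene lists were chosen with earlier results of these data known. Genes kept by filterByExpr (18285) were scaled by TMM and fitted in edgeR 4.0.16 (R 4.3.3) with 1 mean per group over all 16 libraries, which left 8 residual degrees of freedom. Robust quasi-likelihood tests covered 11 pairs of groups and 3 differences between pairs, with Benjamini-Hochberg adjustment over all genes in each and calls under 0.05. CPM per kb is CPM divided by union exon length. All 10 members are named, and of each other list the 3 genes with the highest mean CPM; other genes named from a list were chosen after their values were seen. Likeness used log2 CPM (prior count 2), and that of ERBB3 to other genes is not reported here. Alternatives were RLE scaling, a DESeq2 1.42.0 Wald test, no filter, a GC and length correction, only the compared libraries, a replicate block, C1 as control, library totals without TMM, and each library left out. The fits were tested on simulated counts with known changes.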

Additional observations from a re-analysis of the deposited data

Results flagged for a closer look

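The difference between mesenchymal and epithelial cells was itself different between pairs for 17 combinations of member and pair, by edgeR's test of the interaction with adjustment over all genes. Of all genes tested, 20.1% were called for EED against KMT2D, 21.1% for EED against C2 and 24.1% for KMT2D against C2. Values are log2 differences of the 2 changes, and comparisons that name the same pair share its libraries.

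For the EED pair minus the KMT2D pair, the values were -0.89 for ERBB2 (adjusted p = 0.044), -2.58 for ERBB3 (2.1e-05), 2.23 for HBEGF (0.0027), 3.73 for TGFA (2.2e-05), -2.82 for EPGN (0.0013) and 1.39 for NRG1 (3.8e-04). The ERBB2 call was lost with a replicate block, when GC content and length were corrected for and without 7 of the 8 libraries.

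For the EED pair minus the C2 pair, they were -1.3 for AREG (adjusted p = 0.036), -2.08 for EREG (0.019), 3.44 for HBEGF (6.0e-05), 2.63 for TGFA (7.5e-05), -5.71 for EPGN (1.3e-05) and 3.12 for NRG1 (2.3e-07). The AREG call was lost without 7 of the 8 libraries and in a fit of the 8 libraries alone (adjusted p = 0.14), and kept without C2-Mes replicate 2 (-1.81, adjusted p = 2.6e-06). Without C2-Mes replicate 1 the AREG value was -0.43 (adjusted p = 0.11) and the EREG value -1.01 (adjusted p = 0.12). The EREG call was also lost without either C2-Epi library, sgEED-Epi replicate 1 or sgEED-Mes replicate 1 and in the fit of those 8 libraries (adjusted p = 0.075). Without C2-Mes replicate 1, HBEGF was at 4.05 and TGFA at 3.26.

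For the KMT2D pair minus the C2 pair, they were 1.08 for ERBB2 (adjusted p = 0.015), 2.25 for ERBB3 (4.3e-05), -1.71 for AREG (0.0078), -2.89 for EPGN (0.0026) and 1.74 for NRG1 (6.0e-05). Without C2-Epi replicate 2 the EPGN value was -3.58. The ERBB2 call was lost without sgKMT2D-Epi replicate 1 (1.01) or sgKMT2D-Mes replicate 1 (1.002). Both the ERBB2 and the AREG call were lost when only the compared libraries were fitted (adjusted p = 0.056 and 0.055).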

How the results depend on the processing

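The number of members called kept within 1.5 times of its main value with RLE scaling and with DESeq2 in all 14 comparisons. It was 3 instead of 5 for C2-Epi against C1 with the GC and length correction. With C1 as the control it was 4 instead of 8 for sgEED-Epi and 3 instead of 8 for sgKMT2D-Epi. For sgEED-Epi against sgKMT2D-Epi it was 6 without the filter, 5 with the GC and length correction and 6 with only the compared libraries, instead of 3. With only the compared libraries it was 3 instead of 7 for sgKMT2D-Mes against C2-Mes and 3 instead of 5 for the KMT2D minus C2 difference. With single libraries left out it ranged from 8 to 9, 7 to 8 and 6 to 7 for the C2, EED and KMT2D pairs. It ranged from 2 to 3 for C2-Epi against C1, 4 to 6 for sgEED-Epi against sgControl and 4 to 9 for sgKMT2D-Mes against C2-Mes. For sgEED-Epi against sgKMT2D-Epi it ranged from 0 to 2, the 0 being edgeR's count without sgKMT2D-Epi replicate 1 (2 at an unadjusted p under 0.05). A change of sign came 19 times where neither setting gave a call, and 3 times where one did: with C1 as the control AREG and HBEGF in sgEED-Epi were 0.14 and 0.55, and EREG in sgKMT2D-Epi against sgControl was -0.75 (adjusted p = 0.032) after correcting for GC content and length, where 0.65 had not passed. Over all genes, fits of only the compared libraries called 3361 instead of 7246 in the C2 pair, 9967 instead of 5620 for C2-Epi against C1, 3567 instead of 7664 and 2112 instead of 6103 for sgEED-Mes and sgKMT2D-Mes against C2-Mes, and 2130 instead of 3866 for the EED minus C2 difference. C1 as the control gave 4601 instead of 8930 for sgEED-Epi. With single libraries left out, the most distant counts were 2629 for C2-Epi against C1, 2226 instead of 4951 for sgControl against C1, 1555 instead of 3202 for sgEED-Epi against sgKMT2D-Epi, 3556 instead of 5686 for sgEED-Mes against sgKMT2D-Mes, 4042 for sgKMT2D-Mes against C2-Mes, 2293 instead of 3674 for EED minus KMT2D and 6749 instead of 4410 for KMT2D minus C2. The GC and length correction moved the median log2 change of all genes to 0.11 in the C2 pair and to -0.10 in sgEED-Epi against sgControl and in sgEED-Mes against C2-Mes. It lowered the share of higher calls from 73.7% to 52.4% for sgEED-Epi against sgKMT2D-Epi and from 56.8% to 46.2% for sgEED-Mes against sgKMT2D-Mes. The causes were not tested.

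For each group the log2 difference between replicate 1 and replicate 2 was correlated across 18285 genes with that of every other group. These correlations were above 0.1 in 4 of 28 pairs of groups and below -0.1 in 6, from -0.371 to 0.344. Same replicate numbers thus marked no pairing shared by all groups, and a link between some of the groups was not tested. The replicate block left 8 members called in each of the 3 pairs of states and changed 3 of 140 member calls. With 2 libraries a group and as few as 2 counts of BTC and 7 of TGFA in a library, modest differences of these genes may not be detectable at this depth.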
